A study of Mus musculus with 4 samples.

Results

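The proneural and neurogenic basic helix-loop-helix (bHLH) factors were followed in EGFP-positive (pHes1_EPC) and EGFP-negative (pHes1_ENC) retinal cells of pHes1-EGFP mice. The group was set by a list of gene symbols and holds 9 of the 21830 genes analyzed, namely Neurog2, Atoh7, Neurod1, Neurod2, Neurod4, Neurod6, Olig1, Olig2 and Bhlhe22. All 9 were found in each of the 4 gene tables, each on 1 line with the status OK, and no filter on low values removed any of them. The labels give FVB/N as the strain, retina as the tissue, and postnatal day 1 (P1) or postnatal day 4 (P4) as the age. At each age, cells that carried EGFP and cells that did not were sorted apart, and each fraction gave 1 library of RNA sequencing. All 4 libraries came from the same transgenic line, in which a fragment of the Hes1 promoter drives a destabilized EGFP, so that the fractions follow the activity of this fragment and not the Hes1 protein. No cells of another genotype and no treatment were included, and the number of mice behind a library is not given in the sources used here.

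bHLH proneural factors are transcription activators that start the neuronal program in progenitors and, in the retina, help to decide which neuron a cell becomes. They bind as dimers with the widely expressed E proteins to a short DNA motif, the E-box. Hes and Hey proteins repress proneural genes in cells that receive a Notch signal, among them progenitors and Müller glia, and Id proteins hold E proteins in dimers that do not bind DNA. Neurog2 acts early and briefly in cells that leave the progenitor state, whereas NeuroD factors follow in young neurons. Atoh7 is required for retinal ganglion cells, and Neurod1 and Neurod4 are known from photoreceptor precursors, amacrine cells and bipolar cells. Olig1, Olig2 and Bhlhe22 form a related branch that mostly represses transcription. Olig2 marks retinal progenitors near their last divisions as well as the oligodendrocyte lineage, and Bhlhe22 is known from amacrine and bipolar subtypes.

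The genes lie on 6 chromosomes of the mouse build mm9, and in the annotation of that build the coding part of each lies in 1 exon. Neurog2 occupies chr3:127336063-127338549 on the plus strand and Atoh7 chr10:62562904-62563353 on the plus strand. Neurod1 occupies chr2:79292798-79296793 and Neurod4 chr10:129705208-129717296, both on the minus strand. Olig2 lies at chr16:91225795-91228922 on the plus strand, and Olig1 follows on the same strand at chr16:91270014-91272184, with 41091 bases between the end of Olig2 and the start of Olig1. The other 3 genes are Neurod2 at chr11:98186731-98190959 on the minus strand, Neurod6 at chr6:55627813-55631257 on the minus strand and Bhlhe22 at chr3:17954325-17957514 on the plus strand. The line of Atoh7 spans 450 bases with 447 coding bases, so that nearly the whole of its FPKM rests on the coding part of the gene. The RefSeq transcription start used for its promoter window lies at -371 bases from the start of this line.

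The 250 bases before the transcription start are shown for the 5 genes on which the results turn, because their windows differ in E-boxes although these genes share a family. The sequences are those of RefSeq on GRCm38.p6, and each was found once, without a mismatch, in mm9, which gives the coordinates used here. They are written 5′ to 3′ along the strand of the gene, with E-boxes (CANNTG, the same on both strands) in capitals. In mm9 the windows lie at chr3:127335804-127336053 (plus strand) for Neurog2, chr16:91225545-91225794 (plus strand) for Olig2, chr2:79296794-79297043 (minus strand) for Neurod1, chr10:129717311-129717560 (minus strand) for Neurod4 and chr10:62562283-62562532 (plus strand) for Atoh7.
Neurog2: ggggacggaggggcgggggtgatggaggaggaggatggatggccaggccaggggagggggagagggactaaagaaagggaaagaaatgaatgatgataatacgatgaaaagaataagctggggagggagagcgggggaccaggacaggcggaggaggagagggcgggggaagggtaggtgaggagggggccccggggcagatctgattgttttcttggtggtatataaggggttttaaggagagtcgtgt
Olig2: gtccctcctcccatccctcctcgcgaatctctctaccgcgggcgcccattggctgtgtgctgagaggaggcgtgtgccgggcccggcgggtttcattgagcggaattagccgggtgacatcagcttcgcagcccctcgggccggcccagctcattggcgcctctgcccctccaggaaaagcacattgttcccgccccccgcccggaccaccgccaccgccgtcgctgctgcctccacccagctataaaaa
Neurod1: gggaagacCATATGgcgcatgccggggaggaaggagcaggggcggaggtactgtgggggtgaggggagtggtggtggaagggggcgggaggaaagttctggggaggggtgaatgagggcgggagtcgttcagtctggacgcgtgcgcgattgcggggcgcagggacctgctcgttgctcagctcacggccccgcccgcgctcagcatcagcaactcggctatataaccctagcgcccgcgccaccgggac
Neurod4: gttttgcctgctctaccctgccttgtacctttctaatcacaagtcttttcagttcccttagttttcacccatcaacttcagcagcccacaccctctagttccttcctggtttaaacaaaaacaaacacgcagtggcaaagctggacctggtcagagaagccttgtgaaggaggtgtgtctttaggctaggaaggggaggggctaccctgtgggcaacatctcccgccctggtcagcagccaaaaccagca
Atoh7: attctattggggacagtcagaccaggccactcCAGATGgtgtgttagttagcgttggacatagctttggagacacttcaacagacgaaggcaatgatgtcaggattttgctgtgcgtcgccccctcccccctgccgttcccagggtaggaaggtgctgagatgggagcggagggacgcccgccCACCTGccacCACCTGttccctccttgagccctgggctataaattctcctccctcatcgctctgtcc

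Neurog2 and Olig2 had no E-box in this window, Neurod1 had 1, which starts 242 bases before the transcription start, and Atoh7 had 3, which start 218, 67 and 57 bases before it. The first of Atoh7 reads CAGATG, which 14.4% of all windows held on either strand. A promoter sequence was present for 7 of the 9 genes, as 8 sequences because Neurod4 has 2 starts, and 4 of the 8 held an E-box (Atoh7, Neurod1, Neurod2 and Neurod6). Of all 32851 promoter windows of this length 66.2% held at least 1 E-box, a share that 4 of 8 windows does not exceed. The N-box, a Hes binding motif searched as CACNAG and as its reverse CTNGTG, was found in 3 of the 8 windows (both of Neurod4 and that of Neurod6) and in 36.7% of all windows. The 2 windows of Neurod4 overlap, and the N-box of the window not shown is the one nearer to the start in the window shown, so that these matches come from 2 genes. The Neurod4 window shown holds 2 N-boxes, which start 213 and 90 bases before the transcription start, and no N-box overlapped an E-box. These matches are letters in a window and not measured binding.

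Read numbers are not part of the tables, so the depth behind a value is known only through the interval that Cufflinks gives with each FPKM. FPKM count sequenced fragments relative to the length of the transcript and to the size of the library, so levels can be compared between genes only roughly. In P1 pHes1_ENC Atoh7 stood above Neurog2 by FPKM (77.3 against 74.3) but below it by interval (39.4 to 49.0 against 65.8 to 71.5). Among the 9 genes the half-width of the interval ran from 1.06% of its midpoint for Neurod1 in P4 pHes1_ENC to 77.8% for Neurod6 in P1 pHes1_ENC, and for Neurod6 in P1 pHes1_EPC the interval reached 0. The interval covers the counting and assignment of reads in that library only, not the spread between animals or sorts. In 11 of the 36 values of these genes the FPKM lay above its own interval, so both are given. That is a larger share than the 8.84 to 10.2% of all genes whose FPKM lay outside the interval. All genes include 4729 to 5112 per library that were listed at 0, so these shares are over unlike sets. The highest values of Neurog2, Atoh7, Neurod1, Neurod4 and Olig2 are among the 11. With 1 library in each group there is no replicate error and no test, and every difference below describes these libraries. A gene was counted as higher or lower when log2(FPKM + 1) differed by more than 1, that is by more than 2-fold in FPKM + 1. Within 2-fold means short of this rule, so a gene of low FPKM can be within 2-fold at a larger FPKM ratio. Ranges of FPKM ratios combine the bounds of the 2 intervals. Fewer cells of a type and less RNA per cell cannot be told apart in sorted bulk samples.

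The fractions were checked by their markers. Hes1 was listed at 16.6 FPKM in pHes1_ENC and 104 in pHes1_EPC at P1, and 3.59 in pHes1_ENC and 93.5 in pHes1_EPC at P4. Of 12 Müller glia markers 9 were higher in pHes1_EPC at P1 and 10 at P4, and of 12 cell cycle genes 12 and 11 were. Red cell markers summed to 137.1 and 329.2 FPKM in pHes1_ENC at P1 and P4 against 0.586 and 5.82 in pHes1_EPC. The FPKM of all lines summed to between 342618 and 450080, with the highest sum in P4 pHes1_EPC.

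At P1 7 of the 9 bHLH genes were lower in pHes1_EPC than in pHes1_ENC (Neurog2, Atoh7, Neurod1, Neurod2, Neurod4, Olig2 and Bhlhe22) and 0 were higher. Over all genes 6.79% were lower and 6.1% higher, and among the 12941 genes that reached 1 FPKM in some library 11.5% were lower and 10.3% higher. The median difference of the 9 genes was -2.21 on the log2 scale, while that of all genes was 0.0 and that of the genes at or above 1 FPKM 0.02. At P4 the group was split. Atoh7, Neurod1 and Neurod4 were again lower in pHes1_EPC, Neurog2 and Olig2 were higher, and the other 4 genes were within 2-fold in FPKM + 1. This compares with 5.42% lower and 9.85% higher of all genes (9.15% and 16.6% of the genes at or above 1 FPKM). Olig1 is among these 4, although without the pseudocount its FPKM was 4.98 times (2.35 to 14.0) as high in pHes1_EPC. The share of all genes that was higher at P4 depends on the scaling between libraries. After rescaling to the same total 8.69% were higher and 9.95% lower, and after quantile normalization 7.06% and 7.11%. The median of the 9 genes at P4 was -0.19, beside 0.15 for all genes at or above 1 FPKM. It is the value of Neurod6, which stayed below 1 FPKM. After rescaling to the same total Neurod6 stood at -0.49 and the median of the genes at or above 1 FPKM at -0.13. Under that rescaling 3 of the 9 genes were higher (Neurog2, Olig1 and Olig2) and 4 lower (Atoh7, Neurod1, Neurod2 and Neurod4).

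From P1 to P4 the 2 fractions went different ways. In pHes1_ENC 5 of the 9 genes were lower at P4 (Neurog2, Atoh7, Olig1, Olig2 and Bhlhe22) and 0 were higher, where 5.94% of all genes were lower and 2.77% higher (10% and 4.67% of the genes at or above 1 FPKM). In pHes1_EPC 5 of the 9 were higher at P4 (Neurog2, Neurod1, Neurod2, Neurod4 and Olig2) and 0 were lower, where 4.17% of all genes were higher and 2.57% lower (7.04% and 4.33% of the genes at or above 1 FPKM). After rescaling to the same total Atoh7 joined as the 1 gene that was lower in P4 pHes1_EPC, beside the same count of 5 higher. The median difference from P1 to P4 was -1.04 in pHes1_ENC and 1.41 in pHes1_EPC. These are the values of 2 genes with low levels, Olig1 (0.239 FPKM in P4 pHes1_ENC) and Neurod2 (0.276 FPKM in P1 pHes1_EPC). These comparisons share libraries with the comparisons between fractions, and so they are other views of the same 36 values.

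**Figure D1:**
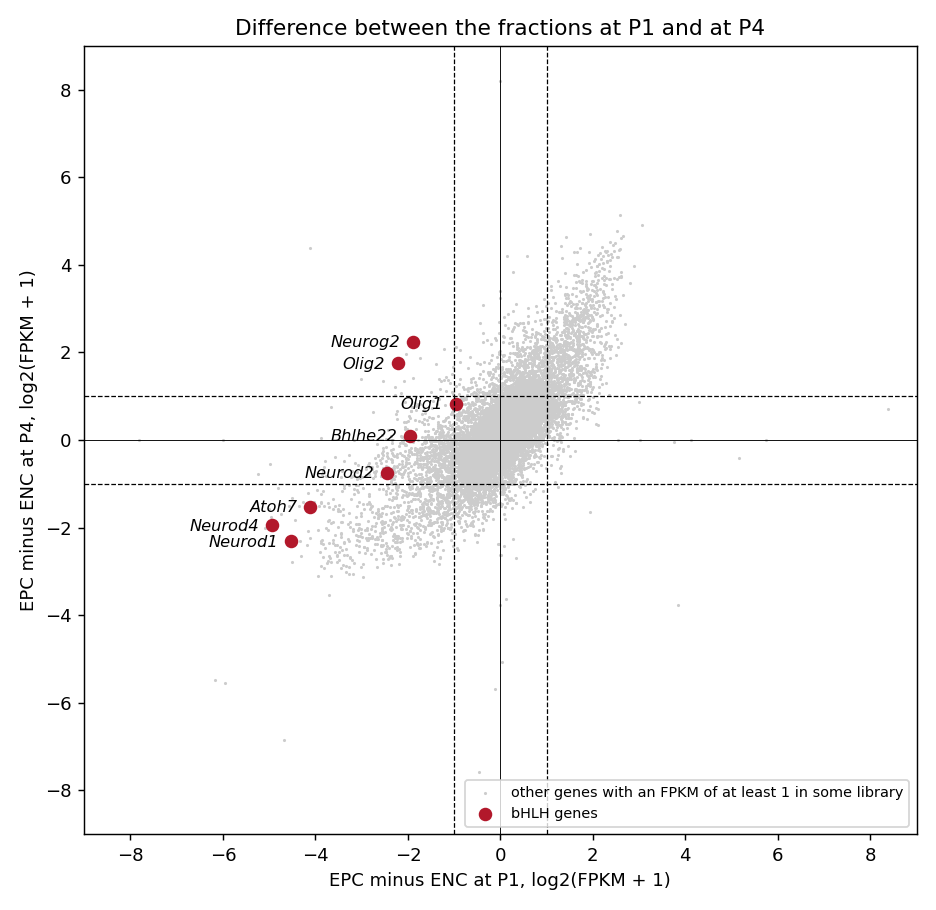
Difference between pHes1_EPC and pHes1_ENC in log2(FPKM + 1) at P1 (horizontal axis) and at P4 (vertical axis), where each grey point is a gene that reached 1 FPKM in some library, red points are the bHLH genes, and dashed lines mark a 2-fold difference. Neurog2 and Olig2 lie in the upper left corner beyond both lines, Neurod1, Neurod4 and Atoh7 in the lower left corner, and Neurod6, which stayed below 1 FPKM, is not drawn.

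Neurog2, the proneural factor at the head of the program, changed sides between P1 and P4. The FPKM of Neurog2 was 74.3 (Cufflinks interval 65.8 to 71.5) in pHes1_ENC and 19.3 (16.6 to 19.7) in pHes1_EPC at P1, and 13.2 (11.3 to 13.9) in pHes1_ENC and 66.7 (58.9 to 64.2) in pHes1_EPC at P4. P1 pHes1_ENC and P4 pHes1_EPC were thus the 2 high libraries, and the intervals of neighbours in this order did not overlap. Neurog2 was 3.86 times (3.35 to 4.3 from the interval bounds) as high in pHes1_ENC as in pHes1_EPC at P1, and at P4 5.04 times (4.25 to 5.69) as high in pHes1_EPC. Its log2 differences were -1.89 and 2.25, a change of 4.14 that was exceeded by 8 genes of all. Within pHes1_ENC the level at P4 was 0.178 of that at P1, and within pHes1_EPC it was 3.46 times (3.0 to 3.86) that at P1.

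Olig2 was high and low in the same libraries as Neurog2, at a lower level. The FPKM of Olig2 was 27.6 (24.3 to 27.5) in pHes1_ENC and 5.17 (4.3 to 5.74) in pHes1_EPC at P1, and 5.5 (4.58 to 5.93) in pHes1_ENC and 20.9 (18.3 to 21.5) in pHes1_EPC at P4. The 2 low libraries had overlapping intervals, and the 2 high libraries did not. Olig2 was 5.34 times (4.24 to 6.4) as high in pHes1_ENC at P1 and 3.8 times (3.08 to 4.69) as high in pHes1_EPC at P4. Its log2 differences of -2.21 and 1.75 differ by 3.97, and 11 genes of all had a larger change. The ratio of Neurog2 to Olig2 stayed between 2.41 and 3.73 in the 4 libraries.

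Olig1, the neighbour of Olig2 on chromosome 16, was high and low in the same libraries near the lower end of detection. The FPKM of Olig1 was 1.55 (1.17 to 1.94) in pHes1_ENC and 0.31 (0.176 to 0.457) in pHes1_EPC at P1, and 0.239 (0.109 to 0.362) in pHes1_ENC and 1.19 (0.851 to 1.53) in pHes1_EPC at P4. The intervals of the fractions did not overlap at either age, while those of the 2 high libraries overlapped, as did those of the 2 low libraries. With the pseudocount of 1 its log2 differences were -0.96 and 0.82, within 2-fold, while the FPKM ratios were 5.01 (2.57 to 11.1) towards pHes1_ENC at P1 and 4.98 (2.35 to 14.0) towards pHes1_EPC at P4. The level of Olig2 was 16.7 to 23.0 times that of Olig1 in the 4 libraries.

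Lower in pHes1_EPC at P1 and higher at P4, by more than 2-fold each, were 27 of all 21830 genes (0.124%), or 0.209% of the genes at or above 1 FPKM. Neurog2 and Olig2 are 2 of these 27. Called instead by intervals that do not overlap at either age, 518 genes changed sides in this direction (2.37%, or 3.89% of the genes at or above 1 FPKM), among them Neurog2, Olig1 and Olig2. Cell cycle genes and retinal progenitor markers are given beside these 3, and 0 genes of either list were higher at P4 than at P1 in pHes1_EPC. Of the 12 cell cycle genes 8 were lower at P4 than at P1 in pHes1_EPC and 10 in pHes1_ENC, and their summed level was 312.0, 1266, 81.9 and 559.3 FPKM in P1 pHes1_ENC, P1 pHes1_EPC, P4 pHes1_ENC and P4 pHes1_EPC. Of 10 retinal progenitor markers 7 were lower at P4 in pHes1_ENC and 3 in pHes1_EPC, and none of either list was at 0 in any library. The part of these lists in the values of Neurog2 and the Olig genes was not tested.

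The oligodendrocyte lineage offers a further check of the Olig genes, since both are best known there. Of its 10 markers 6 were below 1 FPKM in every library. Sox10, which defines the lineage, was between 0.029 and 0.376 FPKM, and Mog, Mag, Gpr17 and Enpp6 stayed below 1 as well. Cnp was the highest, with 22.1, 74.1, 11.2 and 109.3 FPKM in the order above, and it was higher in pHes1_EPC at both ages, unlike Olig2. Pdgfra was within 2-fold at P1 and was 4.11 FPKM in P4 pHes1_ENC against 11.1 in P4 pHes1_EPC.

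**Figure D2:**
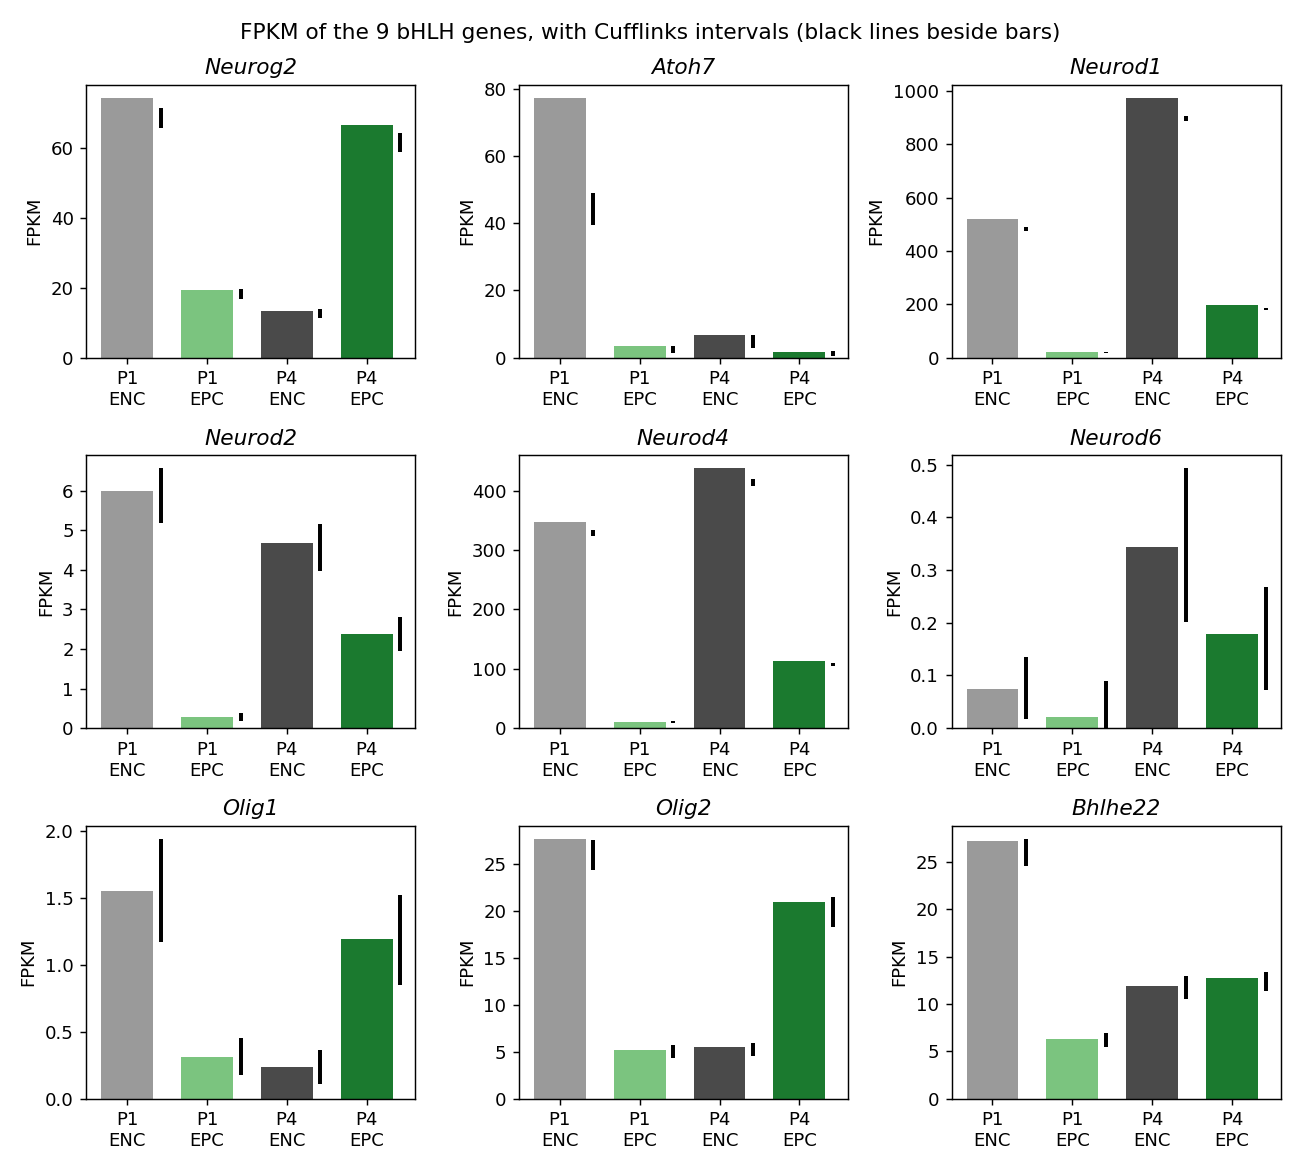
FPKM of each bHLH gene (vertical axis, linear from 0, with a scale of its own in each panel) in the 4 libraries, with 1 bar per library and a black line beside it for the Cufflinks interval, which in 11 of 36 cases lies below the top of the bar. Neurog2, Olig1 and Olig2 are high in P1 pHes1_ENC and P4 pHes1_EPC, Neurod1 and Neurod4 are high in pHes1_ENC at both ages, and Atoh7 is high in P1 pHes1_ENC.

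Neurod1 and Neurod4, which act in young photoreceptors and interneurons, were the most abundant of the group and were higher in pHes1_ENC at both ages. The FPKM of Neurod1 was 521 (474 to 489) in pHes1_ENC and 21.6 (19.0 to 22.0) in pHes1_EPC at P1, and 974 (889 to 908) in pHes1_ENC and 195 (177 to 186) in pHes1_EPC at P4. It ranked 17th among all genes in P1 pHes1_ENC and 8th in P4 pHes1_ENC. Neurod1 was 24.1 times (21.5 to 25.8) as high in pHes1_ENC at P1 and 4.98 times (4.78 to 5.13) at P4.

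The FPKM of Neurod4 was 347 (323 to 333), 10.4 (9.21 to 11.3), 437 (407 to 420) and 113 (104 to 110) in the same order of libraries. No 2 intervals overlapped for Neurod1 or for Neurod4, and both followed the order P4 pHes1_ENC, P1 pHes1_ENC, P4 pHes1_EPC and P1 pHes1_EPC from high to low. Neurod4 was 33.4 times (28.7 to 36.2) as high in pHes1_ENC at P1 and 3.87 times (3.7 to 4.02) at P4. The narrower difference at P4 came with a higher level in pHes1_EPC, where Neurod1 was 9.05 times (8.03 to 9.8) and Neurod4 10.9 times (9.27 to 12) its level at P1, and 35 and 28 genes of all had a larger difference. Within pHes1_ENC the ratios of P4 to P1 were 1.87 and 1.26. The level of Neurod1 relative to Neurod4 stayed between 1.5 and 2.23.

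Markers of rods and photoreceptor precursors differed in the same direction as Neurod1 and Neurod4 between the fractions and from P1 to P4 in pHes1_EPC, where all 10 were higher at P4. In pHes1_ENC 8 of 10 were higher at P4 with a median of 2.81, while Neurod1 (0.90) and Neurod4 (0.33) were within 2-fold on the same log2 scale. Their summed level was 1327 FPKM in pHes1_ENC and 94.4 in pHes1_EPC at P1, and 5058 in pHes1_ENC and 1091 in pHes1_EPC at P4, and none was at 0 in any library. The list was 9 of 10 lower in pHes1_EPC at P1 and 10 of 10 lower at P4, as Neurod1 and Neurod4 were. Of 8 cone markers 5 were lower in pHes1_EPC at each age, 5 were higher at P4 than at P1 in pHes1_EPC and 2 in pHes1_ENC. The cone list summed to 295.3 FPKM in pHes1_ENC and 35.95 in pHes1_EPC at P1, and to 806.3 and 256.3 at P4, with 1 marker at 0 in each pHes1_EPC library. How far photoreceptor precursors within the sorted EGFP-positive cells carry the 2 genes was not tested.

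Neurod2, a related factor of differentiating neurons, shared the P1 difference at a much lower level. The FPKM of Neurod2 was 5.99 (5.17 to 6.56) in pHes1_ENC and 0.276 (0.17 to 0.389) in pHes1_EPC at P1, and 4.67 (3.98 to 5.17) in pHes1_ENC and 2.38 (1.95 to 2.81) in pHes1_EPC at P4. P1 pHes1_EPC was the low library. At P1 Neurod2 was 21.7 times (13.3 to 38.6) as high in pHes1_ENC, a range that includes the ratios of Neurod1 and Neurod4, and at P4 the ratio was 1.96 (1.42 to 2.65), with intervals apart and the log2 difference of -0.74 within 2-fold. In pHes1_EPC its level at P4 was 8.64 times (5.02 to 16.5) that at P1. The level of Neurod6, a marker of an amacrine subset, was 0.075, 0.022, 0.344 and 0.178 FPKM in the order above. The intervals of the fractions overlapped at both ages, so that a difference in Neurod6 was not detectable at this depth. In pHes1_ENC alone the interval at P4 (0.201 to 0.493) lay above that at P1 (0.017 to 0.135).

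Atoh7, the ganglion cell factor, was high in 1 library. The FPKM of Atoh7 was 77.3 (39.4 to 49.0) in pHes1_ENC and 3.54 (1.27 to 3.56) in pHes1_EPC at P1, and 6.82 (2.79 to 6.81) in pHes1_ENC and 1.71 (0.513 to 1.97) in pHes1_EPC at P4. The first value is well above its own interval, and intervals of the other 3 libraries overlapped between neighbours. Atoh7 was 21.8 times (11.1 to 38.6) as high in pHes1_ENC at P1 and 3.99 times (1.42 to 13.3) at P4. In pHes1_ENC the level at P1 was 11.3 times (5.79 to 17.5) that at P4, and in pHes1_EPC it was 2.07 times with a range of 0.646 to 6.93 that spans no difference. Among 10 markers of amacrine and horizontal cells 8 were lower in pHes1_EPC at P1. In pHes1_ENC 5 of the 10 were lower and 1 was higher at P4 than at P1, and their sum went from 277.5 to 97.4 FPKM. The 1 higher marker there, Slc6a9, went from 19.1 to 62.6 FPKM. Of 10 ganglion cell markers 3 were lower in pHes1_EPC at P1 and 5 were lower at P4 in pHes1_ENC, with sums of 47 and 18.3 FPKM there, and 1 of them was listed at 0 at P4. The part of these lists in the values of Atoh7 was not tested.

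Bhlhe22, the amacrine and bipolar factor, differed between the fractions at P1. The FPKM of Bhlhe22 was 27.2 (24.6 to 27.4) in pHes1_ENC and 6.3 (5.46 to 6.96) in pHes1_EPC at P1, and 11.9 (10.5 to 12.9) in pHes1_ENC and 12.8 (11.4 to 13.4) in pHes1_EPC at P4. The 2 fractions met at P4, where their intervals overlapped. At P1 the ratio was 4.32 (3.54 to 5.02) towards pHes1_ENC, and at P4 it was 1.07 (0.878 to 1.27) towards pHes1_EPC, with a log2 difference of 0.10 that became -0.21 after rescaling to the same total. In pHes1_ENC the level at P1 was 2.29 times (1.91 to 2.61) that at P4, and in pHes1_EPC the level at P4 was 2.03 times (1.63 to 2.46) that at P1.

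The make-up of the summed level of the 9 genes differed between the libraries. The summed level of the 9 genes was 1082 FPKM in pHes1_ENC and 66.9 in pHes1_EPC at P1, and 1454 in pHes1_ENC and 414 in pHes1_EPC at P4. Neurod1 and Neurod4 made up 80.2%, 47.8%, 97.1% and 74.5% of these sums. Neurog2 made up 28.8% of the small sum in P1 pHes1_EPC and 16.1% in P4 pHes1_EPC, against 6.87% and 0.91% in pHes1_ENC at P1 and P4. Olig2 stood at 7.73% and 5.04% in pHes1_EPC against 2.55% and 0.378% in pHes1_ENC. These shares are over the 9 genes alone, and the 15 other neuronal bHLH genes described further on summed to 653.2 FPKM in P1 pHes1_ENC and 657.2 in P1 pHes1_EPC. The ratio of Neurod1 to Neurog2 was 7.01 in pHes1_ENC and 1.12 in pHes1_EPC at P1, and 73.6 in pHes1_ENC and 2.93 in pHes1_EPC at P4.

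**Figure D3:**
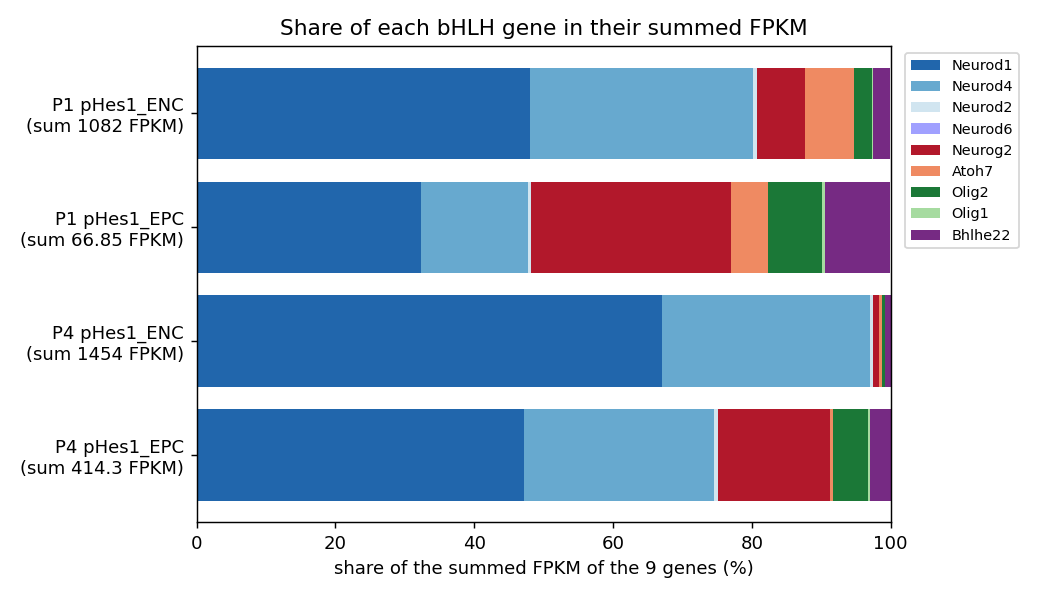
Share of each bHLH gene (horizontal axis, %) in the summed FPKM of the 9 genes in each library, with the sum given beside each bar. Neurod1 and Neurod4 (blue) fill 97.1% of the bar in P4 pHes1_ENC and 47.8% in P1 pHes1_EPC, where Neurog2 (red) takes 28.8%.

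The partners of these factors were compared in the same way. The E proteins Tcf3, Tcf4 and Tcf12, which dimerize with bHLH activators, were expressed at 24.9 to 92.1 FPKM in all libraries. None of the 3 was past 2-fold at P1 and 2 (Tcf3 and Tcf4) were higher in pHes1_EPC at P4, with medians of 0.61 and 1.35 on the log2 scale. The level of Tcf4 was 40.0 FPKM in pHes1_ENC and 61.4 in pHes1_EPC at P1, and 24.9 in pHes1_ENC and 92.1 in pHes1_EPC at P4. Tcf12 stayed between 39.0 and 48.3 FPKM.

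Repressors and inhibitors of bHLH activators were on the EGFP-positive side. Of the 9 genes of this list (Hes1, Hes5, Hey1, Hey2, Heyl and Id1 to Id4) 7 were higher in pHes1_EPC at P1 and 8 at P4, with medians of 2.15 and 3.69, and 0 were lower. Hes1 itself is the gene whose promoter fragment drove the sort, so its place in the list is not independent of the fractions. Hes5, another Notch effector, was the highest, at 64.8, 282.2, 16.3 and 323.9 FPKM in P1 pHes1_ENC, P1 pHes1_EPC, P4 pHes1_ENC and P4 pHes1_EPC. Id3 was 19.1, 125.3, 6.49 and 188.0 FPKM, and Id2 23.5, 114.9, 5.99 and 103.5. From P1 to P4 7 of the 9 were lower in pHes1_ENC, and 0 were past 2-fold in pHes1_EPC. Over all genes 5.94% were lower at P4 in pHes1_ENC, and in pHes1_EPC 4.17% were higher and 2.57% lower. The part of this list in the values of Neurog2 and Olig2 was not tested.

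Among 15 other neuronal bHLH genes 2 were higher and 4 lower in pHes1_EPC at P1, and 4 were higher and 4 lower at P4. Hes6, which acts on the side of the activators, was 433 FPKM in pHes1_ENC and 456 in pHes1_EPC at P1, and 217 in pHes1_ENC and 635 in pHes1_EPC at P4. Nhlh2, a bHLH gene of young neurons, was 45.1, 1.41, 16.0 and 5.37 FPKM in the same order, and Ptf1a, which directs amacrine and horizontal cells, was 25.4, 0.788, 4.33 and 1.0. Both were lower in pHes1_EPC at both ages, as Atoh7 was.

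Early targets of proneural factors were fixed as a list of 20 genes of Notch signaling, cell cycle exit and young neurons. At P1 13 of the 20 were lower in pHes1_EPC and 0 higher, with a median of -1.65. At P4 4 were lower and 4 higher, with a median of -0.24, and under other scalings 2 to 4 were higher and 4 to 8 lower. The 4 higher genes were Dll1, Hes6, Gadd45g and Rnd2, and the 4 lower ones Insm1, Srrm4, Myt1 and Elavl3, all named here after their values were seen. Dll1, the Notch ligand that proneural factors switch on, was 49.5, 48.7, 13.1 and 89.9 FPKM in P1 pHes1_ENC, P1 pHes1_EPC, P4 pHes1_ENC and P4 pHes1_EPC. Rnd2, a small GTPase of migrating neurons, was 139.6, 123.2, 103.5 and 283.2 FPKM, and Gadd45g was 68.3, 27.3, 78.9 and 201.5. On the lower side Insm1, a transcription factor of neuronal precursors, was 103.3, 21.4, 248.3 and 53.4 FPKM, and Elavl3, a neuronal RNA-binding protein, was 55.3, 2.82, 9.22 and 2.77. Srrm4 was 59.7, 4.07, 70.9 and 15.0 FPKM, and Myt1 was 48.5, 2.92, 59.3 and 15.3. All 4 were lower in pHes1_EPC at P1 as well. From P1 to P4 8 of the 20 were higher in pHes1_EPC, while in pHes1_ENC 8 were lower and 1 was higher. Tubb3, a neuronal tubulin, was 308, 20.5, 94.9 and 55.4 FPKM, and Sox4 was 276.8, 86.6, 139.5 and 120.4.

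**Figure D4:**
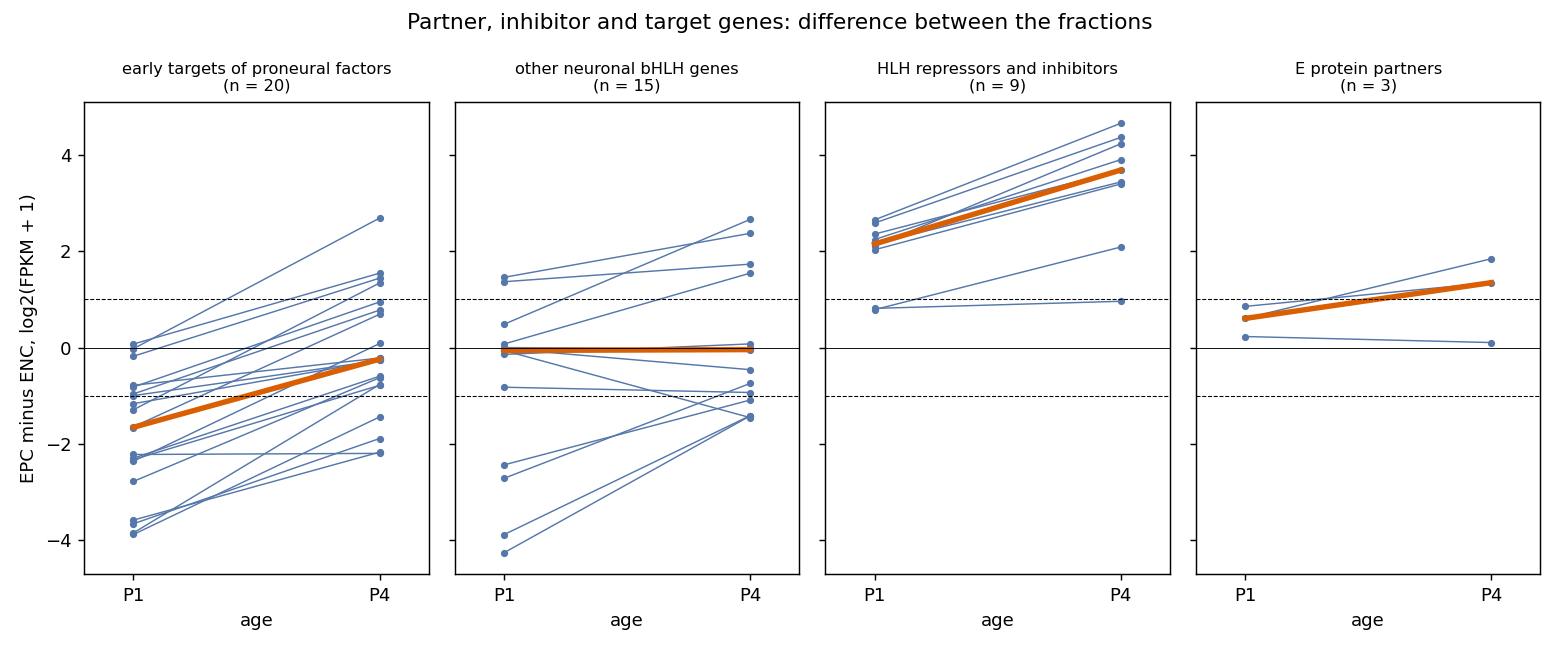
Difference between pHes1_EPC and pHes1_ENC in log2(FPKM + 1) at P1 and P4 (vertical axis) for the genes of 4 lists, where each thin line is a gene, the thick orange line is the median and dashed lines mark a 2-fold difference. Early targets range from -3.88 to 0.07 at P1 and from -2.20 to 2.69 at P4, while all 9 repressors and inhibitors lie above 0 at both ages.

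The profiles over the 4 libraries were also compared across the 8402 genes that reached 10 FPKM in some library. Likeness is the Euclidean distance between log2(FPKM + 1) values after the mean of each gene was subtracted, a description over 4 libraries. Nearest to Neurog2 were Nnat (0.441), Olig2 (0.454) and Fez1 (0.516), and nearest to Olig2 were Nnat (0.382), Stmn4 (0.432) and Neurog2 (0.454), so that the 2 bHLH genes were in the nearest 3 of each other. Nnat was 1010, 300.4, 288.6 and 1067 FPKM in P1 pHes1_ENC, P1 pHes1_EPC, P4 pHes1_ENC and P4 pHes1_EPC. Neurod1 was nearest to Neurod4 (0.428), Crx (0.436) and Cplx3 (0.454), and Neurod4 to Fabp7 (0.245), Neurod1 (0.428) and Chgb (0.72). Crx, a photoreceptor transcription factor, was 265.8, 13.8, 738.7 and 140.0 FPKM. Atoh7 was nearest to AI593442 (0.378), Tcfap2a (0.629), an amacrine and horizontal cell factor, and Krt73 (0.647). Bhlhe22 was nearest to Tmeff1 (0.172), Rab33a (0.29) and Cd24a (0.303). The other 3 genes stayed below 10 FPKM and were not compared.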

How the data were processed

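RNA sequencing covered EGFP-positive and EGFP-negative cells sorted from pHes1-EGFP retinas of P1 and P4 mice, with 1 library per fraction and age (4 in all). The authors reverse transcribed total RNA with random primers and aligned single-end reads to NCBI37/mm9 with TopHat2 2.0.8b. They deposited FPKM per gene from Cufflinks 2.1.1, which adjust for the length of a transcript and the size of the library, with the interval bounds in FPKM. The submitters' processing notes also name bcl2fastq 1.8.4. Gene-level FPKM do not separate isoforms, and strand was not marked in the stated protocol, so antisense reads count with the gene.

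Each table held 23021 lines with 22558 symbols. Small RNAs (794 lines, 728 symbols) were left out by symbol, and for the 234 symbols with several lines the line with the highest summed FPKM was kept, which left 21830 genes. The FPKM were used as deposited. The work was done with pandas 2.3.3 and numpy 2.4.6 under Python 3.11.15 and plotted with matplotlib 3.10.9, and the script was tested on simulated data.

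Differences are of log2(FPKM + 1), which understates the change of low genes, and count when past 1. Each group (a fraction at an age) is 1 library, so no test was made. The genes and lists were chosen with earlier results of these data known. All 9 bHLH genes are named, with up to 4 genes per list from the highest FPKM down, and for each bHLH gene that reached 10 FPKM the 3 genes most alike. Further genes are named outside this rule, such as the early targets past 2-fold at P4 and markers of the oligodendrocyte lineage. Some genes of the lists are not reported here. Alternatives were 2 other pseudocount settings, a filter at 1 FPKM, 3 other scalings, summed lines, intervals that do not overlap, and the midpoint of the interval, the last chosen after seeing the data. Promoters were taken from RefSeq, and gene models from GENCODE on mm9. Read counts, ChIP and qPCR measurements were not used here.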

Additional observations from a re-analysis of the deposited data

Results flagged for a closer look

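For 3 of the 9 genes the EGFP-positive library was the lower one at P1 and the higher one at P4, with Cufflinks intervals apart at each age. Of all 21830 genes 518 (2.37%) met this rule, or 3.89% of the genes at or above 1 FPKM. The log2 difference between the fractions changed by 4.14 for Neurog2, by 3.97 for Olig2 and by 1.79 for Olig1. With 1 library at each age and fraction, the change itself was not tested, and no explanation was weighed. Rescaling the libraries left the directions as they were: over the scalings tried the differences at P1 and P4 were -2.05 to -1.89 and 1.98 to 2.25 for Neurog2, -2.44 to -2.21 and 1.5 to 1.75 for Olig2, and -1.59 to -0.75 and 0.68 to 1.13 for Olig1.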

How the results depend on the processing

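Of 36 counts of bHLH genes past 2-fold (4 comparisons under 9 alternatives), 33 stayed within 1.5 times the reported count, and under no alternative was a gene called in the opposite direction. The count from P1 to P4 in pHes1_EPC was 9 (8 higher, 1 lower) with a pseudocount of 0.1, where 7.85% of all genes were higher and 5.32% lower. It was also 9 with a ratio above 2 and no pseudocount, where 13.8% of all genes were higher and 10.2% lower. Atoh7, Neurod6, Olig1 and Bhlhe22 were added under both, the last at an FPKM ratio of 2.03. With intervals that do not overlap the count in pHes1_ENC was 9 (3 higher, 6 lower), where 16.9% of all genes were higher and 21.1% lower. Of 108 single differences 22 moved by at least the half-width of the range that the Cufflinks intervals give, and 0 of those past 2-fold reversed. No paired analysis was possible because each group holds 1 library. The low levels of Neurod6, Olig1 and Neurod2 in pHes1_EPC limit their ratios, and the FPKM of Atoh7 in P1 pHes1_ENC exceeds its interval, so its difference at P1 was -3.73 from interval midpoints against -4.11.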

Other observations

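The other neuronal bHLH genes hold further patterns, named here after their values were seen. Neurog1, the close relative of Neurog2, was 6.77 FPKM in pHes1_ENC and 0.182 in pHes1_EPC at P1, and 2.66 in pHes1_ENC and 1.19 in pHes1_EPC at P4, and so it was not the higher one in pHes1_EPC at P4. Nhlh1, a bHLH gene of young neurons, was 4.95, 0.1, 4.71 and 1.69 FPKM in the same order. Atoh8 was 2.45, 8.49, 0.548 and 7.02 FPKM, and Bhlhe40 was 0.6, 3.13, 0.324 and 3.4, both higher in pHes1_EPC at both ages. Bhlhe41 was 0.597, 0.532, 6.16 and 1.61 FPKM, high in P4 pHes1_ENC, while Atoh1 was listed at 0 in all 4 libraries.

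Of the 27 genes that were lower in pHes1_EPC at P1 and higher at P4, 25 are not among the 9 bHLH genes. Mapt, a microtubule protein of axons, was 32.3, 3.14, 4.92 and 14.5 FPKM, and Gria2, a glutamate receptor subunit, was 15.4, 1.82, 1.51 and 5.37. Cdkn1c, an inhibitor of the cell cycle, was 19.8, 8.81, 21.8 and 55.1 FPKM, and Dpysl4 was 134.9, 66.0, 48.7 and 158.3. Ankrd33b, at 74.8, 3.4, 0.0 and 20.1 FPKM, is listed at 0 in P4 pHes1_ENC.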
